A study of Mus musculus with 6 samples.

Results

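The mitochondrial ribosomal proteins are the nuclear-encoded proteins of the ribosome that works inside mitochondria. They were taken as every protein-coding gene whose symbol begins with Mrpl or Mrps followed by a digit, which gave 78 genes of the 53700 in the count tables. By symbol, 49 belong to the large subunit (Mrpl) and 29 to the small subunit (Mrps). The RNA came from germinal vesicle (GV) oocytes, mouse oocytes arrested in the prophase of meiosis that hold stored maternal mRNA. PolyA RNA of pools of 10 oocytes was sequenced from wild-type (Zar +/+) and Zar1 knockout (Zar -/-) mice, both on a C57BL/6N background, with 3 libraries per genotype. The labels give no age, do not say which part of Zar1 was deleted and do not tie a pool to an animal. P-values therefore set the difference between genotypes against the scatter of these pools. The sample titles call each pool a biological replicate, but that scatter may be technical.

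Mitochondria carry their own small genome, which codes for a few respiratory chain subunits and for the RNAs needed to translate them, and the mitochondrial ribosome is the machine that makes those subunits. Its ribosomal RNAs come from the mitochondrial genome, whereas all of its proteins are translated in the cytosol and imported. Some of these proteins have counterparts in bacterial ribosomes, and the others were added in mitochondria. Below, these classes were assigned by symbol, without comparing sequences. Bacterial-type meant Mrpl1 to Mrpl36 and 16 symbols of the small subunit, and the rest were counted as added in mitochondria. ZAR1 is an RNA-binding protein of the oocyte, and the series concerns a compartment at oocyte mitochondria in which mRNA is stored. The oocyte is among the cells richest in mitochondria, and human variants in several of these proteins, MRPS22 and MRPL50 among them, are linked to ovarian insufficiency.

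A library held from 32126555 to 39148833 gene counts, and 16473 genes had enough of them to be tested. Zar1, on chromosome 5, was counted 15245, 13612 and 12810 times in wild-type replicates 1 to 3 but 69, 96 and 226 times in the knockout replicates, a log2 fold change of -6.75. Levels below are gene counts scaled to a common library size (CPM), and differences are log2 fold changes of knockout over wild type with their standard error (SE). Both depend on the remaining genes of the library, so a change in the mRNA content of the whole oocyte would not show. A gene is called higher or lower where edgeR's quasi-likelihood test gave a Benjamini-Hochberg adjusted p under 0.05 over all 16473 genes. Less polyA RNA of a gene in every oocyte and fewer oocytes that contain it cannot be told apart in these pools. Nor can a change in the amount of an mRNA be told from a change in its polyA tail, because polyA RNA was sequenced. The 10 oocyte markers checked, such as the zona pellucida genes, summed to between 17131 and 18436 CPM in wild type. In knockout they summed to between 18044 and 19311 CPM, and none was at 0. Of these 10, 5 were higher (50%, against 14.9% of all genes) and 1 was lower (10%, against 18.5%), with a median log2 fold change of 0.27. The 12 granulosa and cumulus markers summed to between 105 and 117 CPM in wild type and to between 123 and 136 CPM in knockout. Every knockout sum lay above every wild-type sum. Most of that sum was Nr5a2 (51.8 and 77.9 CPM as group means) and Cyp19a1 (47.8 and 42.9 CPM), while Amh and Foxl2 averaged at most 0.129 CPM in either group. Of the 12, 8 were tested, with 2 higher (25%, against 14.9% of all genes) and 1 lower (12.5%, against 18.5%). How much granulosa RNA the pools held was not tested. All 4 haemoglobin genes were at 0 counts in every library.

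Members of the mitochondrial ribosome moved in both directions and by small amounts. Of the 76 members tested, 15 were higher in knockout (19.7%, against 14.9% of all genes tested) and 10 were lower (13.2%, against 18.5%), while 51 did not pass. All 76 averaged 50 counts or more, and among genes that reach this mean 18.2% were called higher and 21.8% lower. In either direction 25 members were called, against 33.4% of all genes. The share called higher lay near the background and the share called lower was below it. The median log2 fold change of the members was 0.01, the same as the 0.01 of all genes, and the middle of the distribution ran from -0.16 to 0.34 (the lower and upper quartile) against -0.45 to 0.37 over all genes. More than 2-fold differences in either direction were estimated for 4 members (5.26%), against 17.5% of all genes and 13.2% of those that average 50 counts or more. Of the 25 called members, 15 differed by less than 1.5-fold. In 18 members all knockout libraries lay above all wild-type libraries (23.7%, against 22.2% of all genes), and in 13 all lay below (17.1%, against 25.5%). The split of 15 higher and 10 lower became 19 and 7 when upper-quartile scaling replaced the TMM factors. The sign of the members' median depended on the scaling, at -0.02 with library sizes alone and 0.06 with upper-quartile factors. The median of all genes moved alike, to -0.029 and 0.057. Over all genes, upper-quartile scaling changed 2448 higher and 3051 lower to 2811 and 2780.

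**Figure D1:**
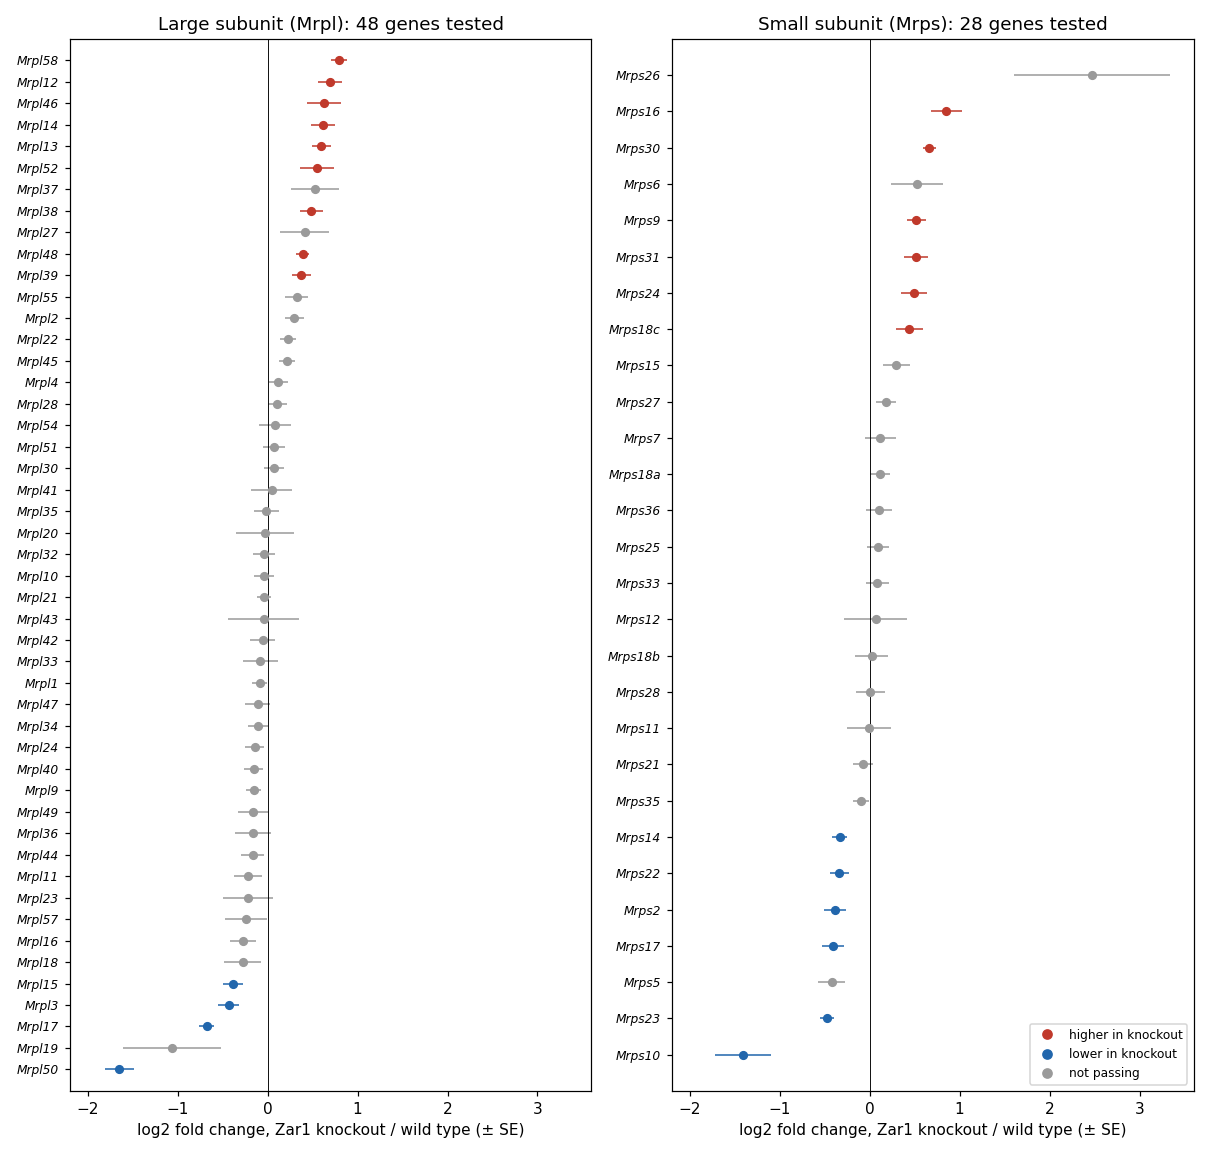
Log2 fold change of knockout over wild type (x axis, point and bar of 1 SE) for each tested member (y axis), 48 of the large subunit on the left and 28 of the small subunit on the right. Red genes were called higher, blue genes lower and grey genes did not pass. Most points lie within 1 log2 unit of 0, and Mrps26, at 2.47, has the widest bar.

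Among large-subunit proteins 9 of 48 were higher in knockout. Mrpl58, known also as Ict1, codes for a peptidyl-tRNA hydrolase that frees stalled mitochondrial ribosomes and is built into the large subunit. It was at 126, 106 and 112 CPM in the wild-type libraries and at 215, 192 and 189 CPM in the knockout libraries, so that the groups were well apart. Its log2 fold change was 0.80 ± 0.09 (SE, n = 3 per group; edgeR adjusted p = 0.000308). Mrpl12, a protein of the ribosomal stalk that also binds the mitochondrial RNA polymerase, was at 21.3, 23.9 and 24.04 CPM in wild type and 33.9, 44.2 and 33.9 CPM in knockout. The groups did not overlap, and the log2 fold change was 0.69 ± 0.13 (edgeR adjusted p = 0.00418).

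Mrpl13, a bacterial-type protein, was at 28.2, 27.7 and 31.9 CPM in wild type and 48.6, 42.0 and 42.3 CPM in knockout (log2 fold change 0.60 ± 0.11, edgeR adjusted p = 0.00297). Mrpl14, which lies at the face of the large subunit that meets the small one, was at 94.99, 128 and 131 CPM in wild type and at 159.5, 183 and 199 CPM in knockout. Every knockout library was above every wild-type library for both genes. The log2 fold change of Mrpl14 was 0.62 ± 0.13 (edgeR adjusted p = 0.00754), but with a correction for the GC content and length of transcripts it was 0.22 and did not pass (adjusted p = 0.28).

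Proteins that mitochondria added to the large subunit made up the rest. Mrpl48, a protein of the central protuberance near the bound tRNAs, was at 235.5, 246.5 and 251 CPM in wild type and 324, 337 and 298 CPM in knockout. This was a smaller difference with little scatter, a log2 fold change of 0.39 ± 0.07 (edgeR adjusted p = 0.00368). Mrpl38, a further protein of the central protuberance, was at 31.6, 30.7 and 30.1 CPM and at 42.4, 36.2 and 50.7 CPM (0.48 ± 0.13, adjusted p = 0.0185). Mrpl39 was at 66.5, 56.7 and 62.2 CPM in wild type and 81.6, 88.1 and 70.2 CPM in knockout (0.37 ± 0.11, adjusted p = 0.0258). Neither gene's groups overlapped, although the knockout libraries were more scattered than the wild-type ones.

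Of the higher large-subunit genes, Mrpl52 passed in the fewest of 17 alternative fits (6), followed by Mrpl38 and Mrpl46 (12 each). Mrpl46, also of the central protuberance, had overlapping groups, with 28.9, 29.99 and 44.5 CPM in wild type and 43.2, 54.4 and 61.8 CPM in knockout (log2 fold change 0.63 ± 0.19, edgeR adjusted p = 0.0307). Wild-type replicate 3 was the library that reached into the knockout range. Mrpl52 was at 6.21, 5.48 and 4.38 CPM and at 7.56, 8.51 and 7.50 CPM (0.55 ± 0.19, adjusted p = 0.0496). Calls that did not pass when 1 library was left out were those of Mrpl52 for any library (adjusted p between 0.0543 and 0.173), of Mrpl38 for any wild-type library (0.0538 to 0.0711), of Mrpl39 for wild-type replicates 2 and 3 and knockout replicates 1 and 2 (0.0606 to 0.104), and of Mrpl46 for wild-type replicates 1 and 2 and knockout replicates 2 and 3 (0.0689 to 0.115). With GC content and length corrected, Mrpl38 was at 0.15 (adjusted p = 0.396), Mrpl46 at 0.50 (0.0757) and Mrpl52 at 0.40 (0.127) and none of them passed, and Mrpl52 also missed the threshold with library sizes alone or with no filter on low counts.

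Of the large subunit, 4 members were lower. Mrpl50, a protein added in mitochondria, showed the largest called difference of all members. Its gene on chromosome 4 was at 20.8, 21.8 and 23.3 CPM in wild type and at 7.44, 5.63 and 7.96 CPM in knockout, a mean of 21.96 ± 1.29 against 7.01 ± 1.22 CPM (SD, n = 3). All 3 knockout pools held less than any wild-type pool by a wide margin, and the log2 fold change was -1.65 ± 0.16 (edgeR adjusted p = 0.000143). Mrpl17, a bacterial-type protein near the exit of the peptide tunnel, was at 65.7, 68.1 and 70.3 CPM in wild type and 42.2, 43.3 and 42.1 CPM in knockout. Its libraries lay close together within each genotype, and the log2 fold change was -0.68 ± 0.08 (edgeR adjusted p = 0.000354).

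The other lower genes of the large subunit changed less. Mrpl3, a core protein near the peptidyl transferase centre, was at 249.3, 315 and 256 CPM and at 176, 208 and 223 CPM (log2 fold change -0.43 ± 0.12, edgeR adjusted p = 0.0194). Mrpl15, a bacterial-type protein, was at 26.7, 29.0 and 28.2 CPM in wild type and 21.5, 19.7 and 23.1 CPM in knockout (-0.38 ± 0.11, adjusted p = 0.028). The groups did not overlap for either gene. The call of Mrpl3 did not pass without wild-type replicate 2 (adjusted p = 0.0688) or knockout replicate 1 (0.0678), and that of Mrpl15 did not pass without any 1 library except knockout replicate 3 (0.0563 to 0.0928). With GC content and length corrected neither passed, Mrpl3 at -0.29 (adjusted p = 0.0889) and Mrpl15 at -0.12 (0.438).

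In the small subunit 6 of 28 tested members were higher. Mrps16, a bacterial-type protein of the small subunit body, had the largest called rise of all members. It was at 9.59, 9.08 and 9.18 CPM in wild type and at 12.9, 18.7 and 18.7 CPM in knockout, with replicate 1 the lowest of the knockout libraries and still above wild type (log2 fold change 0.85 ± 0.17, edgeR adjusted p = 0.0056). Mrps30 carries a small-subunit symbol but its protein sits in the large subunit. Its levels were 174.5, 185 and 165 CPM in wild type and 264, 292 and 274 CPM in knockout, which left a clear gap between the groups. The log2 fold change of Mrps30 was 0.66 ± 0.08 (edgeR adjusted p = 0.000304).

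Mrps9, a bacterial-type protein of the small subunit head, was at 23.2, 24.1 and 26.8 CPM and at 34.8, 36.9 and 34.2 CPM (log2 fold change 0.52 ± 0.10, edgeR adjusted p = 0.0055). Mrps31, added in mitochondria, was at 26.6, 32.6 and 25.5 CPM in wild type and 42.6, 43.4 and 34.9 CPM in knockout (0.51 ± 0.13, adjusted p = 0.0168). Mrps24, a bacterial-type protein, was at 24.5, 24.5 and 24.9 CPM and at 34.0, 41.5 and 28.5 CPM (0.49 ± 0.14, adjusted p = 0.0251). In all 3 genes the knockout libraries lay above the wild-type libraries. Without a library the calls of Mrps31 (wild-type replicates 1 and 3, adjusted p = 0.0688 and 0.077) and Mrps24 (any wild-type library or knockout replicate 2, 0.0572 to 0.079) did not pass. Mrps24 also did not pass with GC content and length corrected, at 0.29 (adjusted p = 0.127).

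Mammals have 3 versions of the bacterial protein S18, Mrps18a, Mrps18b and Mrps18c, of which Mrps18a belongs to the large subunit by structure. Mrps18c was at 6.68, 6.18 and 6.44 CPM in wild type and at 8.93, 8.77 and 8.51 CPM in knockout. The groups did not overlap, but with a log2 fold change of 0.44 ± 0.15 the edgeR adjusted p, 0.04999, stood just under the threshold, and it did not pass without any 1 library (0.0613 to 0.141), with library sizes alone, with no filter on low counts or without the genes of the mitochondrial genome. Mrps18a was at 40.3, 38.1 and 40.3 CPM and at 38.7, 49.1 and 40.4 CPM, and Mrps18b at 5.54, 5.39 and 5.05 CPM and at 5.33, 6.04 and 4.87 CPM. Both had overlapping groups and did not pass (log2 fold changes 0.11 and 0.02, edgeR adjusted p = 0.476 and 0.939). Whether the paralogs differ in their response was not tested.

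Another 6 small-subunit members were lower. Mrps10, a bacterial-type protein of the small subunit head encoded on chromosome 17, was at 2.43, 2.24 and 1.94 CPM in wild type and 0.973, 0.617 and 0.903 CPM in knockout. Its level was low in both genotypes and the groups did not overlap (log2 fold change -1.41 ± 0.31, edgeR adjusted p = 0.00838). Mrps23, added in mitochondria, was far more abundant, at 142, 151 and 143 CPM and at 102, 99.7 and 112 CPM (-0.47 ± 0.08, adjusted p = 0.00189). Its libraries were tight in both genotypes and lay apart.

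Mrps14, a bacterial-type protein of the head, was at 106, 105 and 109 CPM in wild type and 83.5, 91.8 and 79.0 CPM in knockout (log2 fold change -0.33 ± 0.08, edgeR adjusted p = 0.0137). Mrps17, a bacterial-type protein, was at 146, 140.3 and 156 CPM and at 109, 133 and 91.6 CPM (-0.41 ± 0.13, adjusted p = 0.0348). Mrps2, likewise bacterial-type, was at 30.3, 32.8 and 28.4 CPM in wild type and 26.4, 21.6 and 22.1 CPM in knockout (-0.38 ± 0.12, adjusted p = 0.0376). For all of them the groups were separate but close.

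Mrps22, added in mitochondria, was at 67.7, 55.5 and 65.2 CPM in wild type and 48.3, 54.9 and 46.0 CPM in knockout (log2 fold change -0.34 ± 0.11, edgeR adjusted p = 0.0417). Wild-type replicate 2 and knockout replicate 2 nearly met. Leaving out a library ended the calls of Mrps14 (wild-type replicate 3, adjusted p = 0.0586), Mrps17 (any but knockout replicate 2, 0.0552 to 0.114), Mrps2 (any but knockout replicate 1, 0.0654 to 0.13) and Mrps22 (wild-type replicates 1 and 3 and knockout replicates 1 and 3, 0.0918 to 0.138). With GC content and length corrected Mrps14 was at -0.11 (adjusted p = 0.301), Mrps17 at -0.19 (0.316) and Mrps22 at -0.25 (0.109) and none passed, and with upper-quartile factors Mrps2, Mrps17 and Mrps22 did not. Across all members, 11 calls passed in each of 17 alternative fits, namely Mrpl12, Mrpl13, Mrpl48, Mrpl58, Mrps9, Mrps16 and Mrps30 as higher and Mrpl17, Mrpl50, Mrps10 and Mrps23 as lower.

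**Figure D2:**
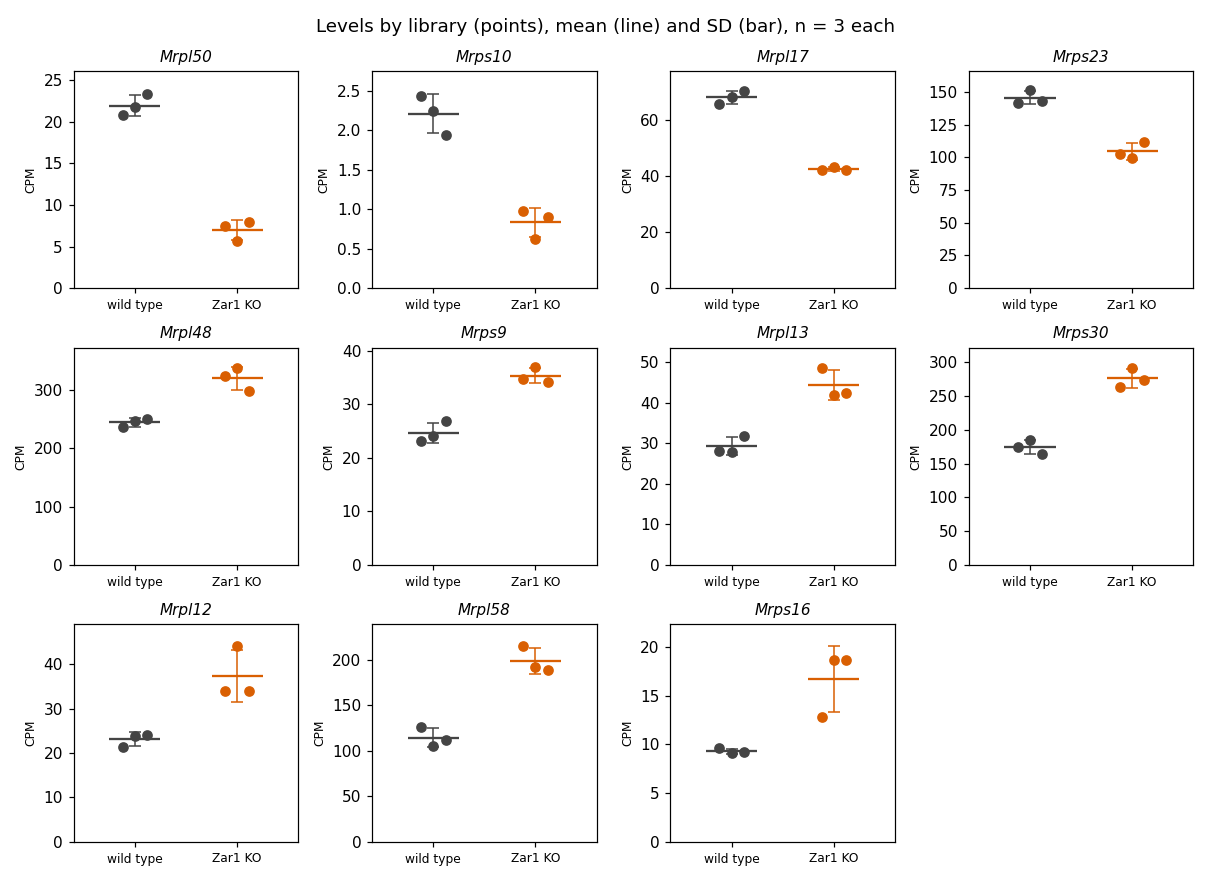
Level in CPM (y axis, from 0) of the 11 members whose call passed in each of 17 alternative fits, by genotype (x axis), with a point for each library, a line for the mean and a bar for the SD (n = 3 each). The groups do not overlap in any panel; Mrpl50 falls from a mean of 21.96 to 7.01 CPM, whereas Mrpl48 moves from 244 to 319.8 CPM.

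The 51 members that did not pass included 2 with estimates beyond 2-fold. Mrps26, added in mitochondria and encoded on chromosome 2, was at 4.92, 5.79 and 4.75 CPM in wild type and at 6.18, 6.44 and 72.8 CPM in knockout. Knockout replicate 3 alone, with 2662 counts, stood far above the other 5 libraries. The log2 fold change of 2.47 ± 0.87 (edgeR adjusted p = 0.0559) became 0.29 without that library (0.278). The gene passed without knockout replicate 1 (0.0238) or 2 (0.0239) and with no filter on low counts (1.57e-08), each of which keeps that library. Mrpl19, a bacterial-type protein, was at 2.81, 1.42 and 1.48 CPM and at 1.15, 1.32 and 0.274 CPM (-1.06 ± 0.54, adjusted p = 0.167). The groups did not overlap, but each was widely scattered and the gene was not called.

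No value could be tested for 2 members. Mrpl53 had 0 counts in all 6 libraries, where 3 counts would be between 0.0745 and 0.0924 CPM, and Mrps34 had between 0 and 8 counts. Both share exon sequence with another gene on the same strand in the annotation used here, so a count of 0 need not mean an absent transcript.

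Compared by subunit, the large subunit had 9 members higher (18.75%) and 4 lower (8.33%) of 48, with a median log2 fold change of -0.04. The small subunit had 6 higher (21.4%) and 6 lower (21.4%) of 28, with a median of 0.09. Over all genes 14.9% were higher and 18.5% lower, and 18.2% and 21.8% of those that average 50 counts or more. Placing Mrps18a and Mrps30 in the large subunit, where their proteins sit, gave 10 higher and 4 lower of 50 (median -0.03) and 5 higher and 6 lower of 26 (median 0.08). Bacterial-type proteins had 7 higher and 7 lower of 44 (15.9% each, median -0.04). Proteins counted as added in mitochondria had 8 higher (25%) and 3 lower (9.38%) of 32 (median 0.09). The latter class held Mrps18a and Mrps18b, although they are versions of bacterial S18, so a class by symbol need not match a protein's origin. The small-subunit median ran from 0.007 to 0.18 with 1 library left out and was -0.033 without members whose exons overlap another gene. These counts and medians are a description, and the difference between subunits or classes was not tested. With all 6 libraries in the fit, each median lay within 0.1 of the median of all genes, and the middle range of each list held 0.

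As a share of all gene counts, large-subunit members took 0.278%, 0.292% and 0.285% in wild type and 0.303%, 0.302% and 0.301% in knockout. Small-subunit members took 0.1196%, 0.116% and 0.1195% in wild type and 0.119%, 0.127% and 0.118% in knockout. Wild type and knockout did not overlap for the large subunit and overlapped for the small one, in which knockout replicate 3 took 0.111% without Mrps26. Such a share is weighted towards abundant and long transcripts. Large-subunit counts exceeded small-subunit counts 2.41 ± 0.101 times in wild type and 2.49 ± 0.098 times in knockout (SD, n = 3 each), and the groups overlapped.

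Levels differed between members far more than between genotypes. Per kilobase of the longest annotated transcript, which allows genes to be compared, the median wild-type level of the members was 16.5 CPM per kilobase, against 3.13 over all genes tested. The highest were Mrpl2, a core protein of the large subunit, at 296 ± 28.4 CPM per kilobase, Mrpl40 at 248 ± 38.5 and Mrpl14 at 183 ± 30.9 (SD, n = 3). The spreads of Mrpl2 and Mrpl40 meet, as do those of Mrpl40 and Mrpl14, so the order among these neighbours is not resolved. With median transcript lengths Mrpl40 came first, at 407.5 against 308 CPM per kilobase for Mrpl2, and Mrpl14, at 222, stood behind Mrpl48 (287) and Mrpl3 (275). In the small subunit Mrps23 led at 104 ± 3.58 CPM per kilobase, followed by Mrps21, a bacterial-type protein, at 74.6 ± 4.32, and Mrps30 at 45.9 ± 2.63. With median transcript lengths Mrps23 still led the small subunit, at 218 CPM per kilobase, but Mrps17 (172) and Mrps14 (136) came next, ahead of Mrps21 (84.6) and Mrps30 (49.1). Mrpl2 and Mrpl40 did not pass the test between genotypes. Mrpl2 was at 291, 339 and 286 CPM in wild type and 354, 339 and 433 CPM in knockout (log2 fold change 0.30 ± 0.11, edgeR adjusted p = 0.0643), and Mrpl40 at 271, 369 and 312 CPM and at 279, 289.9 and 286 CPM (-0.15 ± 0.11, adjusted p = 0.301). At the other end, Mrpl23 (0.563 CPM per kilobase), Mrps10 (0.539) and Mrpl19 (0.38) were the lowest of the tested members. With median transcript lengths the lowest were Mrps10 (2.17), Mrps26 (1.93) and Mrpl43 (1.93).

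**Figure D3:**
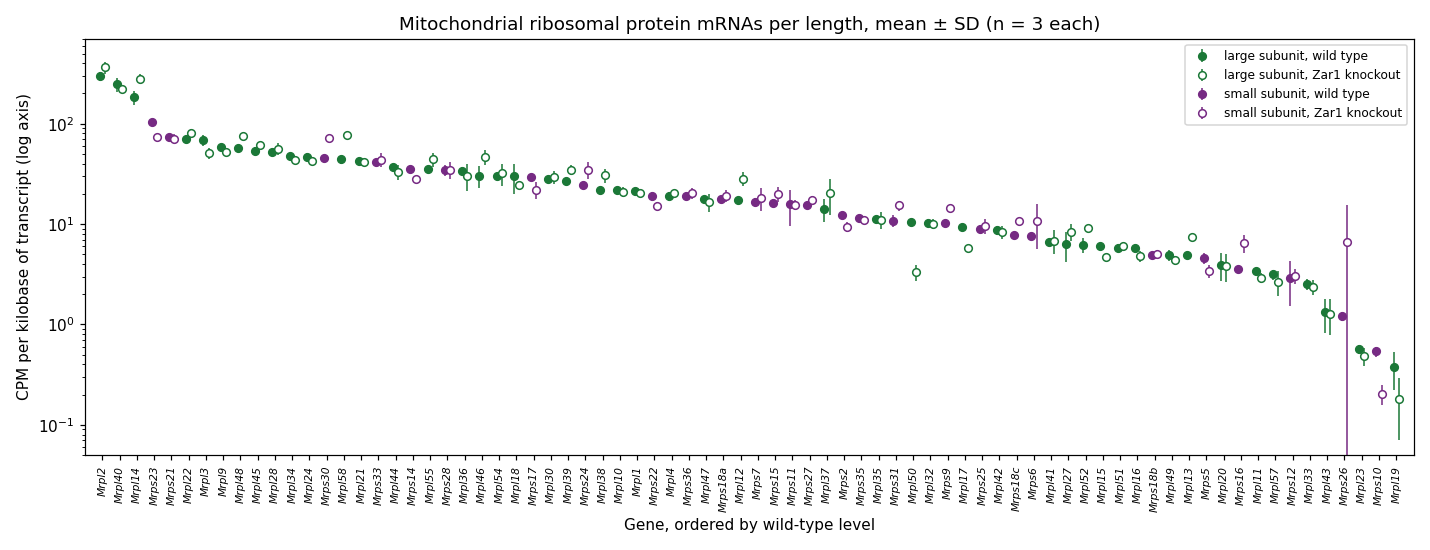
Level per kilobase of the longest transcript in CPM per kilobase (y axis, log scale) for the 76 tested members, ordered by their wild-type level (x axis). Filled points are wild type, open points knockout, green the large and purple the small subunit, and bars are the SD (n = 3 each); levels span from 296 for Mrpl2 to 0.38 for Mrpl19, and the bar of Mrps26 in knockout leaves the axis because 1 library was high.

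The direction of change went weakly with transcript features. Across the 76 tested members the log2 fold change had a Pearson correlation of 0.21 with the GC content of the longest transcript and of -0.17 with its log2 length, and Spearman correlations of 0.27 and -0.29. Over all genes the Pearson and Spearman correlations were 0.15 and 0.20 with GC content and -0.10 and -0.14 with log2 length. Genes are not independent replicates and all of these values come from the same 6 libraries. The longest transcripts had a median of 2294 bases for the higher members, 3634 for the lower and 1657 for those that did not pass, and a median GC content of 48.2%, 45.0% and 50.9%. With GC content and length corrected, 10 members were higher and 6 lower, and 15 of the 25 calls passed. Over all 16473 genes the same correction gave 2604 higher and 2587 lower, against 2448 and 3051 without it. The part of these features in the calls was not tested beyond that correction.

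Stored oocyte mRNAs are often read through short elements near the 3′ end, of which the cytoplasmic polyadenylation element is the best known. The letters TTTTAT, searched on the transcript strand in the last 100 bases of the longest coding transcript, were found in 8 of 78 members (10.3%), against 14.8% of protein-coding genes tested. They were in 3 of the 10 lower members, in none of the 15 higher members and in 5 of the 51 that did not pass. Among all protein-coding genes the shares were 18.2% of those lower, 14.5% of those higher and 13.8% of those that did not pass. The stretches of the 3 lower members are shown because 2 of them, Mrpl50 and Mrps10, had the largest falls, with the element in capitals (GENCODE M21, build GRCm38, chr4:49512647-49512676 on the minus strand for Mrpl50, chr17:47378596-47378625 on the plus strand for Mrps10 and chr1:160202067-160202096 on the plus strand for Mrps14).
Mrpl50: aatgaaattcacTTTTATgtatcactttat
Mrps10: ccattcattcctTTTTATttctggaactca
Mrps14: tcattcccaggtTTTTATgttctatgcatc
The element began 69 bases before the transcript end in Mrpl50, 72 bases before it in Mrps10 and 92 bases before it in Mrps14. The Mrps10 transcript searched has 1113 bases, while its level per kilobase used the longest annotated transcript, of 4090 bases. These are letters in an annotated transcript, and whether they act in the oocyte was not measured.

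Promoters of mitochondrial ribosomal protein genes are known for motifs of the factors NRF1, ETS (GABP) and YY1. RefSeq windows (build GRCm38.p6) from 250 bases before to 50 bases after the transcript start were matched for 69 members, and the letters were searched on both strands. CCGGAAG (ETS) was in 26 of 69 (37.7%), against 19.3% of the windows of 10197 protein-coding genes tested. The NRF1 letters, GCGC followed by any base and TGCGC, were in 13 (18.8%, against 11.2%) and AAGATGGC (YY1) in 12 (17.4%, against 5.03%). By call, the ETS letters were in 5 of 13 higher and 4 of 9 lower members with a window, the NRF1 letters in 4 of 13 and 1 of 9, and the YY1 letters in 1 of 13 and 0 of 9. The 80 bases before the start of the lower member Mrpl17 (chr7:105811088-105811167, minus strand) and of the higher member Mrpl58 (chr11:115403672-115403751, plus strand) are given as an example of each direction, with the NRF1 letters (a match on the opposite strand) and the ETS letters in capitals.
Mrpl17: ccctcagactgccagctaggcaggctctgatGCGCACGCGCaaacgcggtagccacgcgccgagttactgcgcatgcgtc
Mrpl58: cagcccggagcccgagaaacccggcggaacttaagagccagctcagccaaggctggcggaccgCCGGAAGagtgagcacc
The capitals lie 49 to 40 bases before the start in Mrpl17 and 17 to 11 bases before it in Mrpl58. Outside the bases shown, the full windows held an ETS match in Mrpl17 and a further ETS match in Mrpl58. The presence of these letters says nothing of whether a factor was bound.

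Overlapping genes bear on the counts, because no source used here says whether reads were assigned by strand. Exons of 32 members overlap another gene in GENCODE M21. Of the 30 of these that were tested 8 were higher (26.7%) and 1, Mrpl3, was lower (3.33%). The 46 tested members without overlap had 7 higher (15.2%) and 9 lower (19.6%), with a median log2 fold change of -0.01. Over all genes tested 14.9% were higher and 18.5% lower, and those with overlapping exons were not counted apart. The higher members with an overlap include Mrpl58, Mrps30, Mrpl13, Mrpl14, Mrpl46 and Mrpl48. The partners of Mrpl58 and Mrps30, Ict1os and B430218F22Rik, averaged at most 0.0270 CPM. Rab6a, opposite Mrpl48, was at 267 and 256 CPM and Mtbp, opposite Mrpl13, at 32.4 and 30.7 CPM (wild-type and knockout mean), and neither passed. Tmem63b, opposite Mrpl14, was itself higher (48.9 and 70.2 CPM, log2 fold change 0.52). Mrpl46 overlaps a member of the other subunit, Mrps11, on the opposite strand of chromosome 7. Mrps11 was at 13.2, 12.4 and 24.2 CPM in wild type and 17.6, 14.2 and 17.8 CPM in knockout, and did not pass. Wild-type replicate 3 was the highest wild-type library for both genes. The part of the overlaps in these results was not tested.

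Beyond the symbols used here, 5 further proteins of the mitochondrial ribosome have other names. Of these, 3 were higher (60%, against 14.9% of all genes tested) and 1 was lower (20%, against 18.5%). Dap3, a GTP-binding protein of the small subunit, was at 428, 434 and 416 CPM in wild type and 532, 589 and 454 CPM in knockout (log2 fold change 0.30 ± 0.09, edgeR adjusted p = 0.0356). Aurkaip1, a small-subunit protein, was at 53.0, 56.4 and 53.7 CPM and at 67.7, 75.1 and 70.8 CPM (0.39 ± 0.08, adjusted p = 0.00696). Gadd45gip1, which sits by the tunnel exit of the large subunit, was at 8.67, 10.2 and 8.01 CPM and at 14.7, 13.98 and 11.2 CPM (0.57 ± 0.17, adjusted p = 0.0272). All 3 had knockout libraries above wild type.

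Ptcd3, a pentatricopeptide repeat protein at the mRNA entrance of the small subunit, was at 60.2, 63.0 and 69.3 CPM in wild type and 36.2, 39.2 and 32.9 CPM in knockout (log2 fold change -0.83 ± 0.10, edgeR adjusted p = 0.000414). It had the smallest adjusted p of these proteins and was lower in every knockout library. Chchd1 had overlapping groups, at 51.1, 37.96 and 48.1 CPM and at 67.4, 84.2 and 46.6 CPM, and did not pass (0.53 ± 0.20, adjusted p = 0.0723). The calls of Dap3 (adjusted p between 0.0747 and 0.127 without any 1 library except knockout replicate 3) and Gadd45gip1 (0.0591 to 0.108 when any library but wild-type replicate 2 or knockout replicate 3 was left out) were lost, and that of Dap3 was also lost with library sizes alone. With GC content and length corrected Aurkaip1, at 0.17 (adjusted p = 0.157), and Gadd45gip1, at 0.45 (0.0704), did not pass.

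The RNA core of the ribosome comes from the mitochondrial genome. The polyA reads of mt-Rnr1, the ribosomal RNA of the small subunit, were at 159, 106 and 111 CPM in wild type and at 363.5, 330.3 and 422 CPM in knockout, with a wide gap between groups (log2 fold change 1.57 ± 0.16, edgeR adjusted p = 0.000173). Reads of mt-Rnr2, the RNA of the large subunit, were at 6594, 4644 and 4680 CPM and at 7806, 9442 and 7344 CPM (0.63 ± 0.15, adjusted p = 0.0105). How far a library made from polyA RNA represents these RNAs was not tested.

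Factors that build the ribosome moved both ways, with 6 higher and 6 lower of 23 tested and a median log2 fold change of -0.11. Each count was 26.1% of the list, against 14.9% higher and 18.5% lower over all genes tested. Rbfa, which binds the maturing small subunit, was at 1.02, 0.766 and 1.39 CPM in wild type and at 4.92, 4.48 and 4.24 CPM in knockout (2.11 ± 0.28, edgeR adjusted p = 0.000667). Noa1, a GTPase of small-subunit assembly, was at 81.7, 93.4 and 88.4 CPM and at 122, 120.3 and 148 CPM (0.56 ± 0.10, adjusted p = 0.00311). Groups did not overlap for either.

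Fastkd2, which is needed for the RNA of the large subunit, was at 29.5, 30.6 and 29.3 CPM in wild type and 16.1, 18.4 and 18.3 CPM in knockout (log2 fold change -0.76 ± 0.11, edgeR adjusted p = 0.00106). Rpusd4, a pseudouridine synthase that acts on the same RNA, was at 67.4, 54.1 and 64.4 CPM and at 37.99, 39.5 and 40.3 CPM (-0.66 ± 0.10, adjusted p = 0.00152). Both fell in every knockout library relative to every wild-type library, while Rbfa and Noa1 had moved the other way.

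Of 17 translation factors tested, edgeR called 0 higher (against 14.9% of all genes) and 1 lower (5.88%, against 18.5%). Their median log2 fold change was -0.15. At an unadjusted p under 0.05 edgeR had 1 higher and 3 lower, and DESeq2 and limma-voom each called 0 higher and 2 lower. The lower one was Tsfm, the exchange factor of the elongation factor Tu, at 22.8, 18.4 and 18.8 CPM in wild type and 10.9, 11.3 and 15.3 CPM in knockout (-0.68 ± 0.17, edgeR adjusted p = 0.0146). That call did not pass without wild-type replicate 1 (adjusted p = 0.0614) or knockout replicate 1 (0.056). The next was Gfm2, which recycles ribosomes, at 28.7, 30.2 and 27.1 CPM and at 22.6, 25.1 and 22.3 CPM (-0.30 ± 0.11, adjusted p = 0.0645).

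Mitochondrial aminoacyl-tRNA synthetases, which load the tRNAs, had 2 higher and 3 lower of 16 tested and a median log2 fold change of -0.26. The shares were 12.5% higher (against 14.9% of all genes) and 18.75% lower (against 18.5%). Mars2 was at 3.9995, 5.42 and 4.04 CPM in wild type and 0.744, 0.161 and 0.739 CPM in knockout (-3.03 ± 0.47, edgeR adjusted p = 0.00156). Vars2 was at 19.6, 18.6 and 15.6 CPM and at 3.49, 2.79 and 6.16 CPM (-2.11 ± 0.28, adjusted p = 0.000614). These falls were larger than that of any mitochondrial ribosomal protein gene.

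Rars2 was at 34.2, 35.6 and 32.7 CPM in wild type and 22.1, 22.5 and 19.9 CPM in knockout (log2 fold change -0.67 ± 0.10, edgeR adjusted p = 0.00159), with tight and separate groups. Lars2 was higher, at 119.7, 93.5 and 114 CPM and at 141, 198 and 137 CPM (0.54 ± 0.15, adjusted p = 0.0247), a call that did not pass without wild-type replicate 2 (0.0952) or 3 (0.0622). Over assembly factors, translation factors and synthetases together 8 of 56 were higher (14.3%) and 10 lower (17.9%), with a median of -0.17. These shares lay near the 14.9% and 18.5% of all genes tested. For comparison, genes of the cytosolic ribosome had 34 higher (42.5%) and 2 lower (2.5%) of 80 (median 0.32). Whether that list differs from the mitochondrial ribosomal proteins was not tested.

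**Figure D4:**
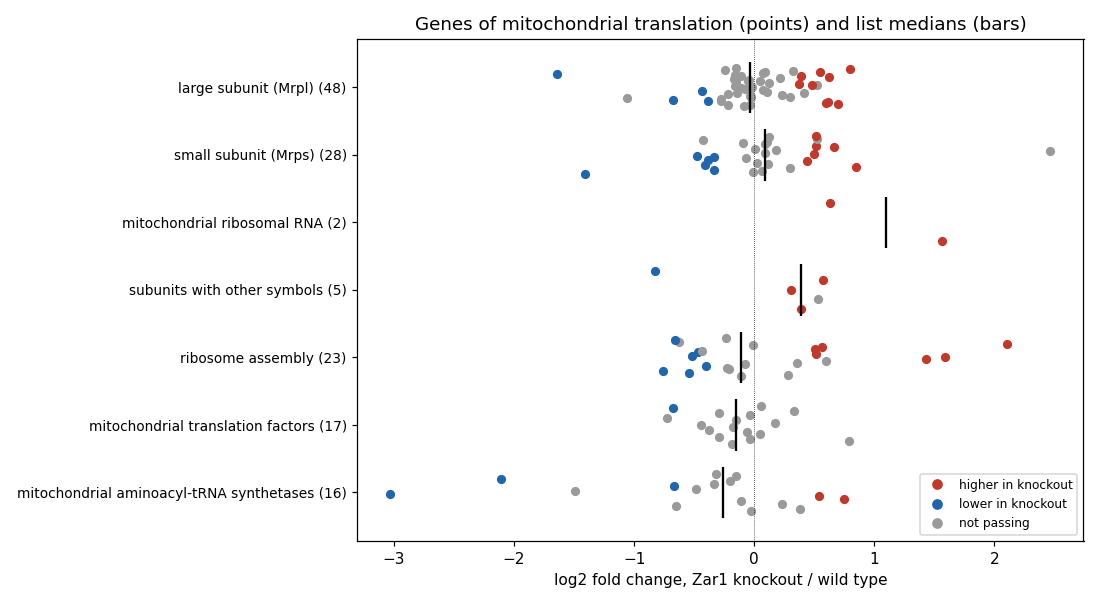
Log2 fold change of knockout over wild type (x axis) for the genes of each list (y axis, number tested in brackets), with a point for each gene, red where called higher, blue where called lower and grey otherwise, and a black bar at the list median. The medians of the large and small subunit, -0.04 and 0.09, lie near 0, and the lowest points are the synthetases Mars2 and Vars2.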

How the data were processed

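For every library the authors deposited a table of unnormalized counts, with a row for each gene. The submitters' processing notes name STAR 2.7.8a, HTSeq 0.13.5, cutadapt 2.8 and bcl2fastq 2.20.0.422, and build mm39. Per the labels' protocols the libraries were prepared with the QIAseq FX Single Cell kit. No annotation release or strand setting is given in the sources used here. The summary rows of the counting (reads outside genes between 4.84% and 5.70% of reads) stayed out of library sizes and tests.

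Genotype and replicate came from the sample titles. Libraries of a genotype differed by more than sampling noise (chi-square over genes divided by its degrees of freedom between 14.2 and 45.4), so none was counted as a duplicate. All genes were fitted with edgeR 4.0.16 in R 4.3.3 (TMM, filterByExpr, quasi-likelihood F test, two-sided, Benjamini-Hochberg adjusted p of 0.05), and the steps were tested on simulated data. Standard errors are the absolute log2 fold change over the square root of the F statistic. Symbols, biotypes, lengths and overlaps came from GENCODE M21 (GRCm38), and 5 pseudogenes with a matching symbol were left out. At this depth 3 counts are between 0.0745 and 0.0924 CPM.

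The members and all gene lists were chosen with earlier results of these data known. Values per library are given for the called members (at most 10 per direction and subunit), the 3 most abundant per length of each subunit, the Mrps18 paralogs, up to 4 called genes of each other list or the 2 with the smallest p, all subunits with other symbols, both ribosomal RNAs and Zar1. Mrps26, Mrpl19, the overlapping neighbours and the cytosolic ribosome were chosen after their values were seen. Alternatives were other scaling factors, filters and tools (DESeq2 1.42.0, limma-voom with limma 3.58.1), the replicate block, a GC and length correction, leaving out each library or the genes of the mitochondrial genome, a stricter threshold and, chosen after seeing the data, leaving out members with overlapping exons.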

Additional observations from a re-analysis of the deposited data

How the results depend on the processing

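RLE factors, library sizes alone, no filter, a mean of at least 50 counts, DESeq2, limma-voom and leaving out the mitochondrial genome moved no count of calls by over 1.5 times. Upper-quartile factors left 3 small-subunit members lower. Correcting GC content and length left 6 members lower, 5 large-subunit members higher and 3 small-subunit members lower, and with the replicate block as well these were 5 members lower, 2 small-subunit members lower and 5 genes higher among assembly factors, translation factors and synthetases. The replicate block alone left 14 members higher and 7 lower, with 5 of those other genes higher; the calls of Mrpl15, Mrpl52, Mrps2, Mrps18c, Mrps22 and Lars2 did not pass with it. Same-numbered libraries did not deviate together (correlations of -0.009, -0.042 and -0.0252). The titles do not say whether the replicate numbers pair the libraries, and correlations near 0 cannot settle it. At an adjusted p of 0.01 there were 8 members higher and 4 lower (large 5 and 2, small 3 and 2) and 4 of the other genes higher and 6 lower. Without members whose exons overlap another gene, 7 were higher (4 large, 3 small) and the small-subunit median was -0.033.

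With 1 library left out, members higher ranged from 9 to 15 and lower from 5 to 8, large-subunit members higher from 5 to 9 and lower from 2 to 4, small-subunit members higher from 3 to 6 and lower from 2 to 5, and the other genes higher from 4 to 8 and lower from 7 to 11. Members higher numbered 9 without any 1 of the wild-type libraries, and members lower numbered 5 without wild-type replicate 3 and 6 without wild-type replicate 1, wild-type replicate 2 or knockout replicate 1. The median of the members ranged from -0.028 to 0.099 and that of the other genes from -0.19 to -0.0945, both highest without knockout replicate 3. Estimates that changed sign were those of Mrps18b (-0.015 with library sizes alone, -0.11 with GC and length correction with or without the block, -0.021 without wild-type replicate 3, and from -0.055 to 0.091 over all libraries left out), Mrps18a (-0.037 with the correction, -0.045 with the block too) and Mrps21 (from -0.12 to 0.0077 over all libraries left out, positive without knockout replicate 3). The cause of these changes was not tested.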
